A study of Mus musculus with 3 samples.

Results

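The sodium-potassium ATPase subunits described here are 7 genes, the beta subunit genes *Atp1b1*, *Atp1b2* and *Atp1b3* and the FXYD genes *Fxyd1*, *Fxyd2*, *Fxyd5* and *Fxyd6*. They were taken by gene symbol from the array design, which gave 12 probes of 41174 on the array. The tissue was choroid plexus epithelium (CPE), laser dissected from the lateral ventricles in frozen brain sections of 3 healthy adult C57BL/6 mice. Each mouse was hybridised to its own 2-colour Agilent array, with amplified CPE RNA in the red dye and a common reference, RNA of wild type C57BL/6 retinal pigment epithelium (RPE) and choroid, in the green dye on all 3 arrays. No dyes were swapped, so a dye preference of a probe stays in its ratio, and the reference is 1 RNA, so its own variation between animals is not in any error. The 3 mice are 1 untreated group, and every ratio compares CPE with the reference.

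The sodium-potassium ATPase moves sodium out of cells and potassium in, at the cost of ATP. Its alpha subunit carries the catalytic site, its beta subunit is a glycoprotein that brings the assembled pump to the plasma membrane, and small FXYD proteins with a single membrane span adjust its kinetics. In the CPE the pump lies in the apical membrane, facing the ventricle, and drives the secretion of cerebrospinal fluid. The RPE also carries its pump apically, so the reference is a pump-rich epithelium too.

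The arrays differed in brightness. The median CPE signal of a spot was 139 units in mouse 1, 104 in mouse 2 and 684 in mouse 3, over local backgrounds of 57, 56 and 58, and 58.5%, 46.0% and 85.6% of probes were well above background. Of 13 CPE markers, all ranked above the 90th percentile in CPE and 11 were higher than in the reference, the exceptions being *Otx2* and *Slc4a5*. Markers of RPE and melanocytes were lower in CPE for 10 of 11 genes, and those of photoreceptors for 9 of 9.

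The promoters of *Atp1b1* and *Fxyd1*, the genes higher in CPE, and of *Fxyd6*, the gene lower in CPE, are shown because these are the genes whose ratios passed the threshold by their main probe. Each is the 250 bases before the RefSeq start on GRCm38.p6, read 5′ to 3′ on the gene's strand, at chr1:164458356-164458605 (minus), chr7:31054854-31055103 (minus) and chr9:45369935-45370184 (plus). Capitals mark the GC box GGGCGG and the CCAAT box CCAAT on either strand.
Atp1b1: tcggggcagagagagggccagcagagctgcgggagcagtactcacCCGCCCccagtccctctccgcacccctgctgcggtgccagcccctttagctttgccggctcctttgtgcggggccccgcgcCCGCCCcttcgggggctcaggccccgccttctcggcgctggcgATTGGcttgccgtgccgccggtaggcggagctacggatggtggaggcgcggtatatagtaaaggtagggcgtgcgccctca
Fxyd1: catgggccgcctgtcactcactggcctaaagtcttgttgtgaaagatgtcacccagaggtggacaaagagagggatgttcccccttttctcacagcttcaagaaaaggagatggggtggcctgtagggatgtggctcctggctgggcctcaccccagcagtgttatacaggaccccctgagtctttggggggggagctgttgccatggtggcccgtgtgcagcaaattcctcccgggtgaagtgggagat
Fxyd6: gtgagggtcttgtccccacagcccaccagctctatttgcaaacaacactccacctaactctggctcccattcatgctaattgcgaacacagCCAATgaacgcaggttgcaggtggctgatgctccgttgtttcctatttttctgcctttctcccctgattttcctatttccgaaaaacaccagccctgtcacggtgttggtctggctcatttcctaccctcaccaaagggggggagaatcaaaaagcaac

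The *Atp1b1* promoter held 24 CG dinucleotides, against a median of 6 over all 32851 mouse promoters, and the *Fxyd1* and *Fxyd6* promoters held 3 and 5. It had 2 GC boxes and 1 CCAAT box, the *Fxyd6* promoter had 1 CCAAT box, and the *Fxyd1* promoter had neither. A GC box stood in 32.7% of all promoters and a CCAAT box in 33.9%. TATAAA, found in 12.4% of promoters, TAATCC (6.25%) and AGAACA (16.1%) occurred in none of the 3. The genes that were higher in CPE thus had unlike promoters by base composition, 70.4% GC for *Atp1b1* and 57.2% for *Fxyd1*, with 50.4% for *Fxyd6*. Promoter sequences were given for 5 of the 7 genes.

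The first question was which subunits differed between CPE and the reference. *Atp1b1* and *Fxyd1* were higher in CPE, 4.82-fold and 5.68-fold, and *Fxyd6* was lower, 6.86-fold. *Atp1b2*, *Atp1b3*, *Fxyd2* and *Fxyd5* did not pass by their main probe, the brightest tested probe of a gene. A probe passed where the limma adjusted p was under 0.05 and the difference at least 2-fold. Of the 12 probes, 11 were tested, 3 were higher and 2 were lower, beside 7.09% higher and 10.2% lower over all 25840 probes tested. By main probe, 2 of 7 genes were higher and 1 was lower, beside 8.9% and 11.2% of 15470 genes. With each array centred on its median in place of loess, 67.0% of all calls were higher in CPE, against 41.1% here, and the median ratio over all probes moved from -0.04 to 0.09 (log2). In tissue pieces such as these, fewer cells that express a gene and less of its RNA per cell cannot be told apart.

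**Figure D1:**
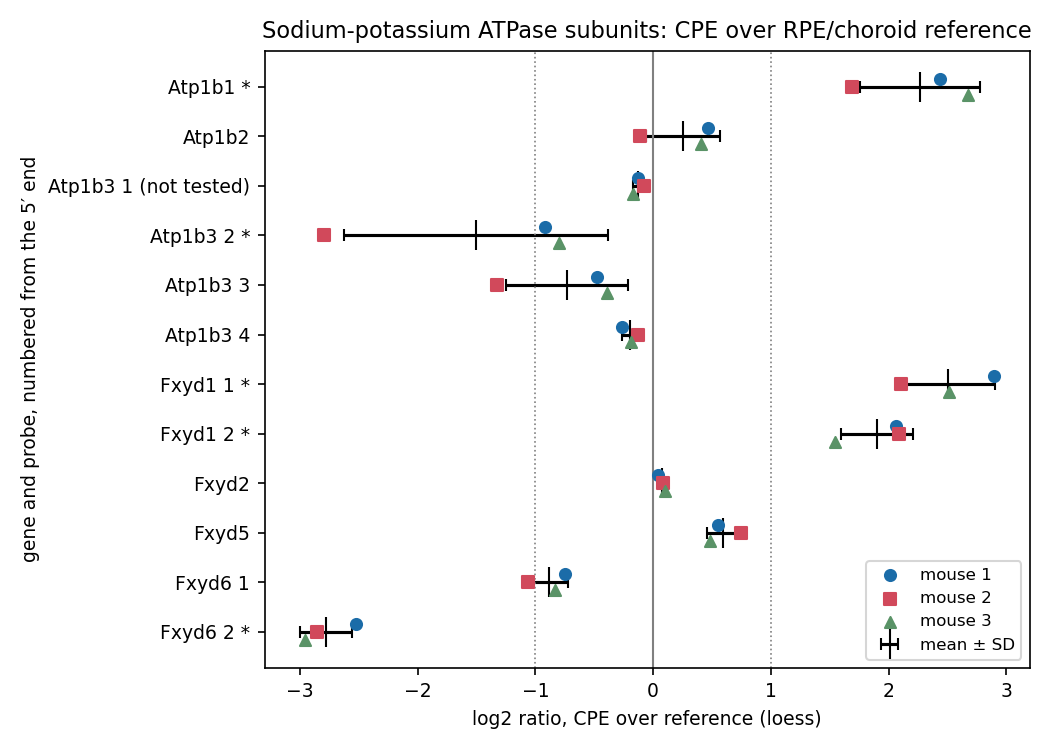
Log2 ratio of CPE over the RPE/choroid reference (x axis) for the 12 probes of the 7 subunit genes (y axis, probes of a gene numbered from the 5′ end), with a symbol per mouse and the mean ± SD in black. Dotted lines mark a 2-fold difference and an asterisk a probe past the threshold: *Atp1b1* and both *Fxyd1* probes lie above 1.5 in every mouse, *Fxyd6* probe 2 lies below -2.5, and *Atp1b3* probe 2 is spread by mouse 2.

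*Atp1b1*, a widespread beta subunit of epithelia, had log2 ratios of 2.44, 1.69 and 2.67 in mice 1, 2 and 3. All 3 mice were higher than the reference, mouse 2 the least. The mean was 2.27 ± 0.51 (SD, n = 3), a 4.82-fold difference (95% interval 3.42 to 6.78; limma, adjusted p = 0.000206). Its probe lies at chr1:166274807-166274866 on mm8, the build of the array design. The CPE signal was 54999.6, 18682.6 and 26621.6 units before normalization, and that of the reference 4033.32, 3261.21 and 2356.52, and the probe was not saturated on any array. These raw signals also hold the offset between the channels.

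*Atp1b2*, also known as adhesion molecule on glia, had log2 ratios of 0.46, -0.11 and 0.41. The mice fell on both sides of the reference. The mean was 0.25 ± 0.31 (SD, n = 3), with a 95% interval of -0.15 to 0.66 (limma, adjusted p = 0.291), and a 2-fold difference lay outside that interval. Under median centring the ratio was 1.04 (limma, adjusted p = 0.0393), which passed.

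*Atp1b3*, a widely expressed beta subunit, had 4 probes on chromosome 9, and they did not give 1 answer. Probe 4, nearest the 3′ end and the brightest (chr9:96142249-96142308), had log2 ratios of -0.26, -0.13 and -0.19, close together in all mice. Its mean was -0.19 ± 0.07 (SD, n = 3; 95% interval -0.54 to 0.15; limma, adjusted p = 0.345). Probe 3 (chr9:96142725-96142784) had -0.48, -1.32 and -0.39, with mouse 2 the lowest, and its mean of -0.73 ± 0.52 (limma, adjusted p = 0.0290) was under 2-fold. Under median centring the ratios of probes 3 and 4 were 0.09 and 0.69, the opposite sign.

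Probe 2 of *Atp1b3* (chr9:96152633-96152692) was called lower in CPE, and this call rested on mouse 2. Its log2 ratios were -0.92, -2.80 and -0.80. Mouse 2 stood far below the others, and the mean was -1.50 ± 1.12 (SD, n = 3; 2.84-fold; limma, adjusted p = 0.0145). Without mouse 2 it was -0.86 (limma, adjusted p = 0.00884), which is under 2-fold. The SD of this probe was larger than that of 99.4% of probes tested. Probe 1, which carries a cDNA accession (chr9:96157725-96157784), was well above background in no CPE sample and on 1 reference array, and was not tested.

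*Fxyd1*, phospholemman, a substrate of protein kinases A and C best known from heart and muscle, had 2 probes, and both were higher in CPE. Its main probe, probe 1, had log2 ratios of 2.90, 2.11 and 2.52. All 3 mice were above the reference, and the mean was 2.51 ± 0.40 (SD, n = 3; 5.68-fold, 95% interval 4.19 to 7.71; limma, adjusted p = 7.68e-05). Probe 2, toward the 3′ end at chr7:30760668-30760727, had 2.06, 2.09 and 1.55, again higher in every mouse, with a mean of 1.90 ± 0.31 (3.73-fold; limma, adjusted p = 0.000180). Probe 1 was placed over chr7:30761791-30762188, so its letters are not contiguous in the genome.

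*Fxyd6*, phosphohippolin, known from brain, was the member that was lower in CPE. Probe 2 (chr9:45147046-45147105), its main probe, had log2 ratios of -2.53, -2.85 and -2.95, all 3 mice below the reference and close together. The mean was -2.78 ± 0.22 (SD, n = 3; 6.86-fold lower, 95% interval 5.28 to 8.91; limma, adjusted p = 2.60e-05). Probe 1 (chr9:45141817-45142585) had -0.75, -1.06 and -0.83, the same direction, with a mean of -0.88 ± 0.16 (limma, adjusted p = 0.00379), which is under 2-fold. On 2 other scales it passed, at -1.03 with a smaller normexp offset of 16 (limma, adjusted p = 0.00577) and at -1.40 with the scanner's own log ratio (limma, adjusted p = 0.0203).

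Markers of several other cell types were also lower in CPE, like *Fxyd6*. By log2 ratio the median was -4.85 over 9 photoreceptor markers, of which 9 were lower, and -5.26 over 11 RPE and melanocyte markers, of which 10 were lower. Stroma markers were lower for 5 of 6 genes (median -1.80), macrophage markers for 3 of 6 (-0.98) and neuron markers for 4 of 8 (-1.78). Of 6 astrocyte markers 3 were lower and 1 was higher, and of 6 muscle and pericyte markers 2 were lower. Not every cell type was lower: none of 6 endothelium markers passed, and of 5 oligodendrocyte markers tested 2 were higher and none lower. All 9 photoreceptor markers and 10 of the 11 RPE and melanocyte markers stayed well above background in every CPE sample.

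The summed marker levels are linear intensities after Aquantile, which still hold the offset between the channels. Over probes of the high class the CPE signal exceeded the reference signal by a median of 1.32, 0.76 and 1.06 on the log2 scale on the 3 arrays, while the loess ratios of the same probes had medians of 0.22, 0.18 and 0.18. The photoreceptor sum was 8711 to 14838 units in CPE and 159952 to 191315 in the reference, and the RPE and melanocyte sum, which includes *Dct*, saturated in the reference on all arrays, was 7975 to 13245 and 176469 to 201385. The stroma sum, which includes *Dcn*, saturated in the reference on 2 arrays, was 25151 to 33462 and 84877 to 97176. The macrophage sum was 10636 to 11948 and 38547 to 46311, and the neuron sum 3288 to 4705 and 14131 to 17984. Each of these sums was lower in CPE. The oligodendrocyte sum was higher in CPE, at 7731 to 10718 against 3086 to 3911. So was the endothelium sum, at 9595 to 16061 against 7043 to 8852. By loess ratio, without that offset, the median was 0.71 over the oligodendrocyte markers tested and -0.15 over the endothelium markers. The astrocyte sum was 6287 to 7608 and 7767 to 11093, and the muscle and pericyte sum 7204 to 22388 and 12790 to 17405. The part of these cell types in the *Fxyd6* ratio was not tested.

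The CPE markers moved the other way, like *Atp1b1* and *Fxyd1*, with a median log2 ratio of 3.14 over 13 genes. Their sum was 425350 to 439276 units in CPE and 34811 to 43719 in the reference, with *Ttr* and *Enpp2* saturated in CPE on 3 arrays and *Clic6* on 1. Their part in the *Atp1b1* and *Fxyd1* ratios was not tested.

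*Fxyd5*, dysadherin, known for its effect on cell adhesion, had log2 ratios of 0.55, 0.74 and 0.48 (chr7:30741565-30741624). Every mouse was above the reference, by less than 2-fold, with a mean of 0.59 ± 0.14 (SD, n = 3; 1.51-fold; limma, adjusted p = 0.0187). *Fxyd2*, the gamma subunit of the kidney pump, had 0.04, 0.08 and 0.10, with a mean of 0.07 and a 95% interval of -0.27 to 0.42 (limma, adjusted p = 0.725). Its probe (chr9:45159111-45159325) was well above background in CPE of mice 1 and 3 but not of mouse 2, where the signal was 97.7 units over a local background of 56, so its ratio there is of a signal near background. With median centring and with the scanner's log ratio it changed sign, to -0.10 and -0.12, without passing.

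In order of ratio, each by its main probe, the genes ran *Fxyd1*, *Atp1b1*, *Fxyd5*, *Atp1b2*, *Fxyd2*, *Atp1b3* and *Fxyd6*. *Fxyd1* and *Atp1b1* differed by 0.24 ± 0.34 on the log2 scale (SD of the differences within an array, n = 3), with the sign turned in mouse 3, so their order was within the spread. *Atp1b1* stood above *Fxyd5* by 1.68 ± 0.65 and above *Atp1b2* by 2.01 ± 0.24, in every mouse. From *Fxyd5* to *Atp1b2* (0.34 ± 0.44) and from *Atp1b2* to *Fxyd2* (0.18 ± 0.33) the steps were smaller than their SD. *Fxyd2* was above *Atp1b3* by 0.27 ± 0.05, but this order turned under median centring, where the ratios were -0.10 and 0.69. *Atp1b3* and *Fxyd6* were 2.59 ± 0.28 apart, with every mouse on the same side. This gap depended on the probe: *Atp1b3* probe 2, with a mean of -1.50, stood below *Fxyd6* probe 1, with -0.88, while *Atp1b3* probe 3, with -0.73, stood above it. These differences are given as descriptions, with no test.

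The second question was how highly each subunit ranked within CPE. Expression classes follow the percentile of the CPE signal among all probes of the array, high above 90, moderate from 50 to 90, low from 10 to 50, and very low under 10. A percentile ranks probes, which differ in how well they hybridise, and does not order the genes by transcript number. Of the 12 probes 6 were in the high class, in every mouse, beside 10% of all probes, and 5 were moderate and 1 low. By gene, *Atp1b1*, *Atp1b2*, *Atp1b3* and *Fxyd1* were high by their main probe, 4 of 7, beside 15.9% of 21337 genes.

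*Atp1b1* ranked at percentiles 99.8, 99.4 and 99.6 in mice 1, 2 and 3, and *Atp1b2* at 97.7, 97.1 and 98.1. Probe 4 of *Atp1b3* ranked at 98.9, 99.2 and 98.7. By main probe all 3 beta subunits were thus in the top class in each mouse, while *Atp1b1* alone of them passed as higher than the reference. In the reference these probes ranked at 97.0, 97.1 and 99.0, also high. Other probes of *Atp1b3* ranked lower. Probe 2 was at 93.3, 79.4 and 92.6, moderate in mouse 2, and probe 1 at 14.7, 17.3 and 13.0, low in every mouse.

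Among the FXYD genes *Fxyd1* was the high one, with percentiles of 99.4, 99.0 and 99.1 for probe 1 and 93.9, 95.7 and 92.6 for probe 2. *Fxyd6* probe 2 was moderate in CPE, at 86.8, 84.5 and 84.6, and high in the reference, at 98.0. *Fxyd5* was moderate at 76.2, 80.7 and 85.5. *Fxyd2* stood at 46.7, 46.7 and 78.1, low in mice 1 and 2 and moderate in mouse 3, the array with the brightest median spot. *Fxyd6* probe 1 ran the other way, at 62.6, 56.2 and 32.2, with mouse 3 the lowest. Ranked only among probes well above background, *Fxyd1* probe 2 came to 87.4 and left the high class, and *Fxyd6* probe 1 fell from 54.3, moderate, to 7.13, very low.

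**Figure D2:**
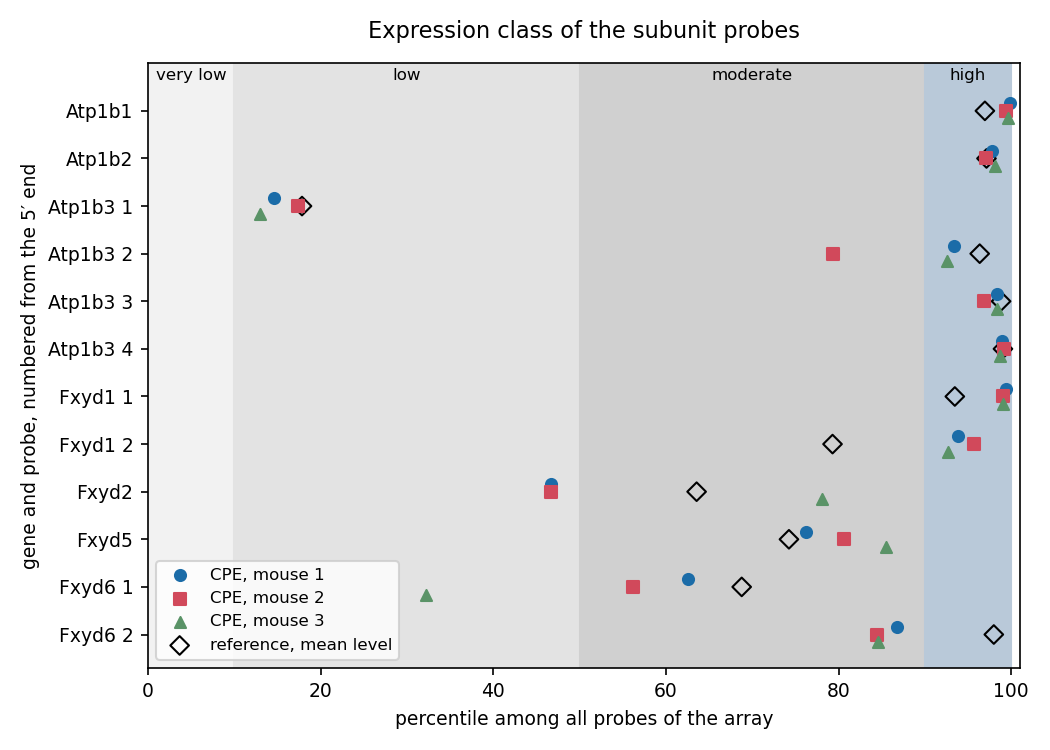
Percentile of each subunit probe among all probes (x axis), with a filled symbol for CPE of each mouse and an open diamond for the reference (percentile of the mean level over 3 arrays). Shaded bands are the expression classes: the beta subunits' main probes and both *Fxyd1* probes sit in the high band in all mice, and *Fxyd2* and *Fxyd6* probe 1 cross from low to moderate between mice.

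The third question was how far the mice differed. Aquantile scales the mean brightness of both channels between arrays and leaves the gap between them, so variation in one channel passes in part to the other. On that scale the log2 level of *Atp1b1* in CPE was 15.57, 14.26 and 14.81, with an SD of 0.66, and 11.80, 11.74 and 11.32 in the reference, with an SD of 0.26. The same order held for *Atp1b3* probe 2, with SDs of 1.20 and 0.31, and for *Fxyd2*, with 1.32 and 0.41. *Fxyd6* probe 1 had 0.37 in CPE and 0.84 in the reference, an order that rested on the joint scaling. With both channels brought to 1 distribution by quantile normalization its SDs were 0.44 and 0.42. After the same step those of *Atp1b1* were 0.59 and 0.35 and those of *Atp1b3* probe 2 were 0.83 and 0.19. The SDs of *Fxyd2* came closer together, at 0.95 and 0.80, so its gap after Aquantile also rested largely on the scaling. The SD of the *Fxyd2* log2 ratio was 0.03. Over the probes tested on the array the median SD was 0.36 in CPE and 0.37 in the reference after Aquantile, and 0.30 and 0.17 after quantile normalization.

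**Figure D3:**
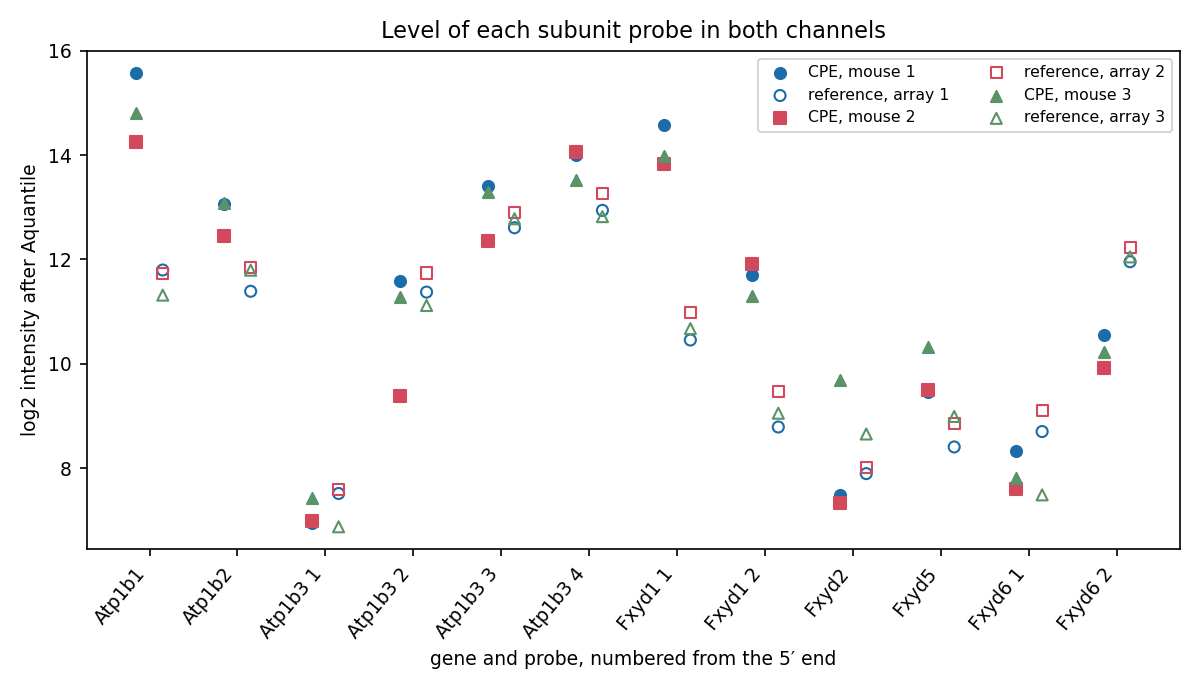
Log2 intensity after Aquantile scaling (y axis) for each subunit probe (x axis), with filled symbols for CPE and open symbols for the reference, and a shape and colour per array. The scaling moved both channels of an array together and left the raw gap between them, which holds the offset that loess removes from the ratio. The spread within a channel shows *Atp1b3* probe 2 of mouse 2 at 9.38, below 11.59 and 11.27, and *Fxyd2* of mouse 3 at 9.68, above 7.48 and 7.32.

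The probes of *Atp1b3* differed in how far mouse 2 departed from the other mice. Its log2 ratio minus their mean was -1.94 at probe 2, -0.89 at probe 3 and 0.10 at probe 4, which is 10384 bp of genome from probe 2. At the single probes of *Atp1b1* and *Atp1b2* it was -0.87 and -0.54. The difference between probes 2 and 4 was -0.66, -2.67 and -0.61 in mice 1, 2 and 3. Mouse 2 minus the others in this difference was -2.35 for CPE signal alone. For the reference signal on the same array it was 0.12, so the departure was seen on the CPE side.

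For *Fxyd1*, with probes 1461 bp apart, the difference of the 5′ from the 3′ probe was 0.84, 0.02 and 0.97, again lowest in mouse 2. *Fxyd6*, with 5229 bp between probes, showed 1.78, 1.80 and 2.12, and mouse 2 did not stand apart there. Mouse 2 minus the others was -0.15 for *Fxyd6*, and -0.91 under median centring. An earlier account of these data had described lower 5′ probes in mouse 2. *Atp1b3* and *Fxyd1* are thus examples of it and not independent evidence, while *Fxyd6* did not show it with loess.

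**Figure D4:**
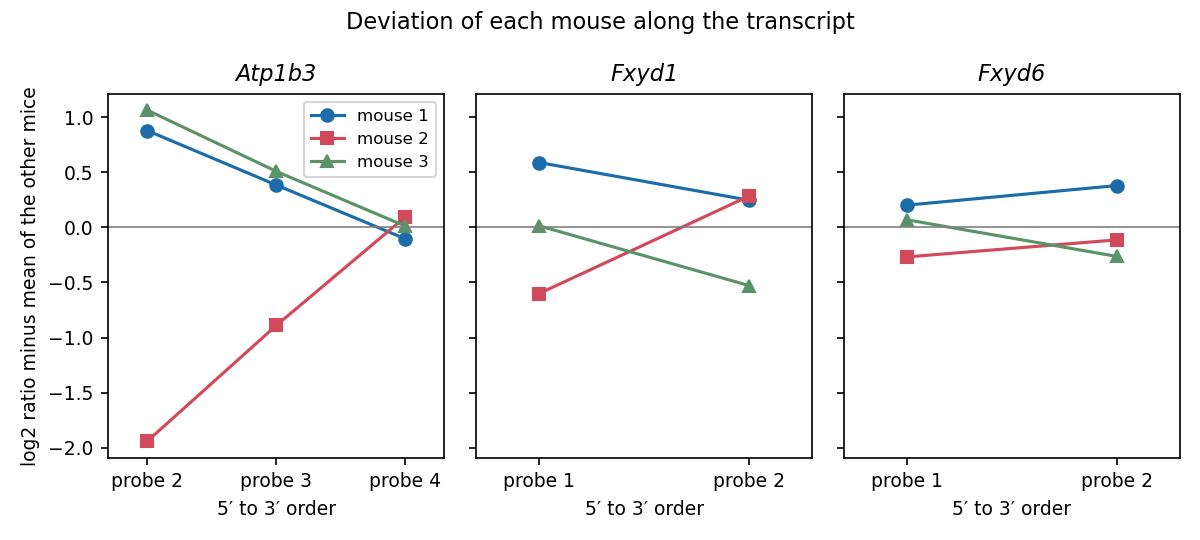
Deviation of each mouse's log2 ratio from the mean of the other mice (y axis) at the tested probes of *Atp1b3*, *Fxyd1* and *Fxyd6*, in order from 5′ to 3′ (x axis). Mouse 2 lies at -1.94 for *Atp1b3* probe 2 and at 0.10 for probe 4.

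The other genes of the pump pathway were taken from lists of its further subunits, interacting proteins, regulators and membrane skeleton anchors. These lists were chosen with earlier results of these data known. Of the 25 genes counted here 24 were on the array and 19 were tested. By main probe 2 were higher in CPE, 4 were lower and 13 did not pass, beside the 8.9% higher and 11.2% lower over all genes by main probe. Their median log2 ratio was -0.12, and that of all probes tested was -0.04.

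In the FXYD family *Fxyd3* was lower in CPE, with a mean log2 ratio of -3.57 (limma, adjusted p = 1.59e-05), and *Fxyd4* and *Fxyd7* had 0.19 and 0.36 and did not pass. The probes of *Fxyd5*, *Fxyd7*, *Fxyd1* and *Fxyd3* follow each other on chromosome 7, with gaps of 11729, 8283 and 17918 bp, and had 0.59, 0.36, 2.51 and -3.57. The probes of *Fxyd6* and *Fxyd2* lie 12006 bp apart on chromosome 9, with -2.78 and 0.07. Among the FXYD probes on chromosome 7, that of a gene higher in CPE was thus followed by that of a gene lower in CPE. Genes outside the family that may lie in the gaps were not looked at. *Atp1b4* and the 3 proton pump relatives *Atp4a*, *Atp4b* and *Atp12a* did not reach the test.

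Of the interacting proteins *Nkain4* was higher, with log2 ratios of 1.33, 1.76 and 0.65 and a mean of 1.25 (limma, adjusted p = 0.00402). Without mouse 2 its mean was 0.99 (limma, adjusted p = 0.00641), just under 2-fold. The ubiquitin ligase gene *Nedd4l* was lower, at -1.61 (limma, adjusted p = 0.000884), and the kinase gene *Sgk1*, at -0.75, was under 2-fold while ranking at percentile 99.5. Of 10 anchors, the spectrin gene *Sptb* was higher at 2.07 (limma, adjusted p = 0.000967). The ankyrin genes *Ank2* and *Ank3*, which tie membrane proteins to spectrin, were lower at -2.23 (limma, adjusted p = 0.000412) and -1.89 (limma, adjusted p = 0.000162). *Sptan1*, *Sptbn1*, *Add1* and *Add3* were in the high class without passing in either direction, though *Sptbn1* passed as higher under median centring.

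**Figure D5:**
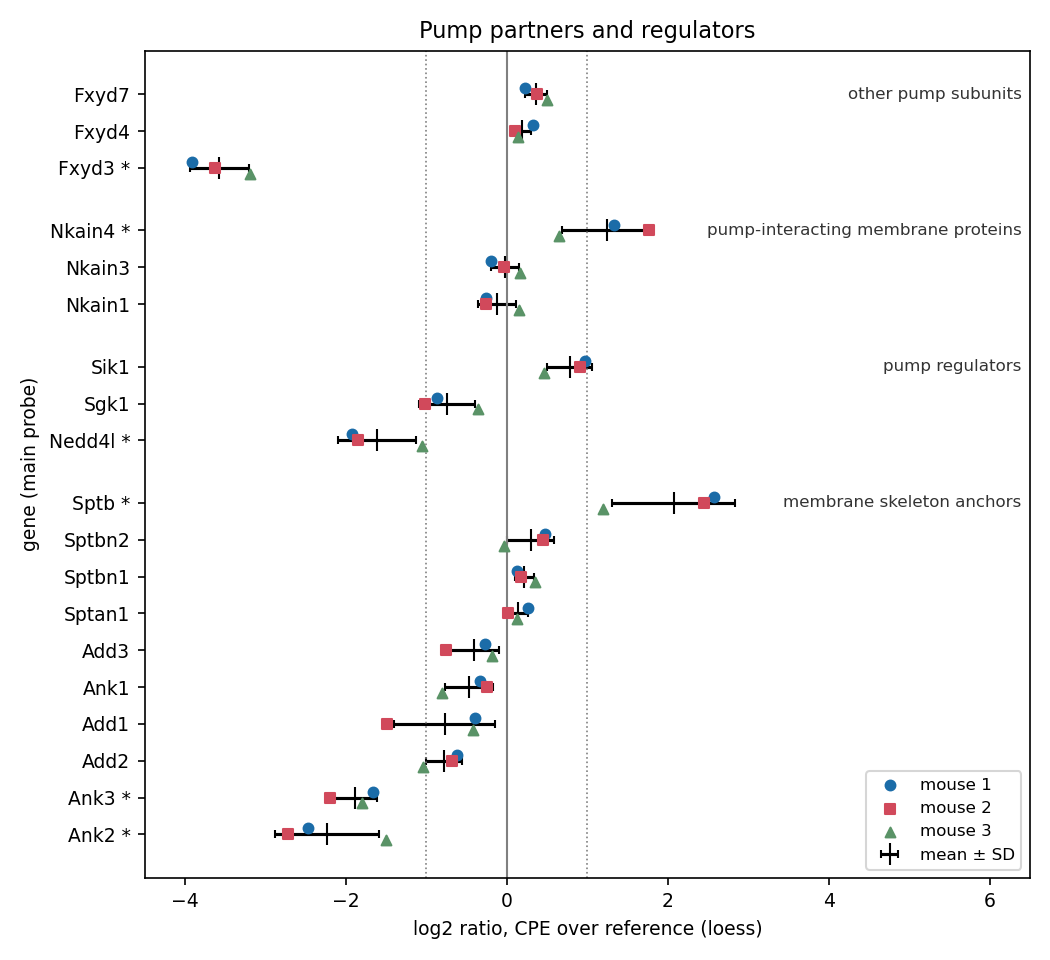
Log2 ratio of CPE over reference (x axis) for the 19 tested genes of the pump pathway lists by main probe (y axis, grouped by list), with a symbol per mouse, the mean ± SD in black, dotted lines at a 2-fold difference and an asterisk for genes past the threshold. *Sptb* and *Nkain4* lie to the right, at 2.07 and 1.25, and *Fxyd3* and *Ank2* to the left, at -3.57 and -2.23.

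The genes most like each called member were found by the Euclidean distance between their 3 log2 ratios, over 15470 genes and 3 mice. Nearest to *Atp1b1* were *Col9a3* (distance 0.22), *Ahcyl2* (0.29) and *Mlf2* (0.37). *Fxyd1* was closest to *Bst2* (0.19), *Lbp* (0.30) and *Tecr* (0.33). The neighbours of *Fxyd6* were *Gad1* (0.25), *Gpha2* (0.31) and *Slc4a4* (0.39). With 3 mice this distance is mostly one of the mean ratio, and it is given as a description.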

How the data were processed

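CPE of 3 mice was laser dissected, and its RNA was isolated, amplified and labelled with Cy5, against Cy3-labelled reference. The authors deposited scanner tables made with Agilent Feature Extraction 9.5.3.1, which hold spot and local background intensity on a linear scale, flags, and the log10 ratio of red over green. They also deposited a table of log2 values, which they had normalized with limma's Aquantile in R 2.14.0. Its ranks followed the CPE channel (Spearman correlation 0.999, 0.998 and 0.999), so it holds levels, not ratios, and served as an alternative.

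Ratios were computed in R 4.3.3 with limma 3.58.1 by normexp background correction (offset 50) and loess within arrays, with control spots weighted 0 and outlier spots dropped. Spots of a probe were averaged. A probe entered the test against 0 where either channel was well above background on every array, fitted with lmFit and eBayes, with Benjamini-Hochberg adjustment over all of them, in a procedure tested on simulated data. Percentiles used red intensity without background correction, after Aquantile. The number of arrays limits the precision.

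Text names all probes of the members, pathway genes past the threshold or in the high class, and the 3 nearest genes of each called member. Members and lists were chosen with earlier results of these data known. Some genes of the lists are not reported here and are in no count of them. Alternatives covered background correction, normalization, filters, array weights, limma's treat against 2-fold and leaving out each mouse. Accessions of 56.8% of probes matched the RefSeq table, and other probes kept the design's name. No mm8 annotation was used, so exons and introns are not given. The human arrays were not analysed here.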

Additional observations from a re-analysis of the deposited data

How the results depend on the processing

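The ratios of *Atp1b1*, both *Fxyd1* probes and *Fxyd6* probe 2 kept their direction and passed the threshold under all 11 alternatives. They ranged from 2.07 to 3.13, 2.31 to 3.31, 1.80 to 2.52 and -2.90 to -2.09. Member probes lower in CPE numbered 1, in place of 2, under median centring, under treat against 2-fold and without mouse 2 (range 1 to 2 on leaving out a mouse). *Atp1b3* probe 2 was the one lost, at -0.84 under median centring (limma, adjusted p = 0.144), and it was also lost with the scanner log ratio, at -1.53 (limma, adjusted p = 0.0603). With the scanner log ratio the count stayed at 2, because *Fxyd6* probe 1 passed there. With a normexp offset of 16 the count rose to 3, again by *Fxyd6* probe 1. Signs turned under median centring for *Atp1b3* probe 3 (0.093), *Atp1b3* probe 4 (0.69) and *Fxyd2* (-0.10), and with the scanner log ratio for *Fxyd2* (-0.12). The cause was not tested. Pathway genes higher in CPE numbered 4 under median centring, with *Sik1* and *Sptbn1* gained, 1 under treat, which lost *Nkain4*, and 1 to 2 on leaving out a mouse. Those lower numbered 3 in place of 4 under treat, which lost *Nedd4l* (limma, adjusted p = 0.139). All probes higher numbered 3743 under median centring, 2849 with the scanner log ratio and 455 under treat, and all probes lower 959 under treat. The median SD of member probes in CPE over that in the reference was 1.32, and it was 2.21 with median centring of each channel and 2.13 with quantile normalization. Over all probes tested the median SD was also larger in CPE on these 2 scales. It was 0.75 in CPE and 0.35 in the reference with median centring, and 0.30 and 0.17 with quantile normalization. High class member probes numbered 5 to 7. The alternatives on probe position were chosen after seeing the data. No paired analysis was possible because the samples form 1 group. Dim probes, such as *Fxyd2*, are limited by signal over background.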
